A study of Mus musculus with 6 samples.

Results

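Transcripts of 10 ductal surface and secreted markers of acinar-to-ductal metaplasia (ADM) were followed in cultured mouse pancreatic acini: Tspan8, Cd44, Prom1, Muc1 and Epcam at the cell surface, Ambp, Spp1 and Clu among secreted products, and Cftr and Car2 of ductal bicarbonate transport. They were found as the rows of the deposited count table that carry these gene names, 10 of 56953 genes, and all 10 were among the 14738 genes with enough counts to be tested. The list was chosen by names that earlier results had drawn attention to, with the CPM levels in these 6 libraries and the fold changes of all 3 group comparisons already known. Fold changes, standard errors and p-values of the markers are therefore a description of the fit, and counts of markers are set beside the share of all genes without reading anything from the difference.

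In ADM, acinar cells, which make and store digestive enzymes, lose their secretory granules and take on the shape and gene expression of duct cells. Duct cells carry adhesion molecules, mucins and tetraspanins on their surface, secrete glycoproteins such as osteopontin, and drive bicarbonate-rich fluid through CFTR and carbonic anhydrases. Several of these markers are also used to recognise precursor lesions and ductal adenocarcinoma of the pancreas.

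Acini were explanted from pancreata and kept for 3 days in an ex vivo ADM assay, in medium with serum, trypsin inhibitor and dexamethasone. The groups were wild-type acini without treatment (WT, labelled 10 and 11 weeks of age, male for WT 1 and female for WT 2), acini of Dkk3 knockout mice without treatment (DD, labelled 12 and 13 weeks, males), and Dkk3 knockout acini given recombinant DKK3 protein (DD+rDKK3, labelled 14 and 15 weeks, males), with 2 bulk RNA-seq libraries each. DKK3 is a secreted glycoprotein of the Dickkopf family. The knockout allele lacks it in all tissues, and by the study's account it replaces exon 2 of Dkk3, the exon with the signal sequence. There was no wild-type group given rDKK3. The labelled age differs from library to library, so age and group cannot be told apart. The labels do not state that the libraries came from separate animals, so p-values measure the spread between these samples, which may be technical.

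Library totals lay between 12018473 and 19750401 counts. Counts of Dkk3 itself were 10 and 1 (WT), 11 and 9 (DD) and 5 and 5 (treated DD), below the filter on low counts, and a count over the whole gene cannot show which exon was read. Summed acinar markers, led by the chymotrypsinogen gene Ctrb1, made up 10.9 to 15.2% of all counts, and every library held the 10 markers described here. Libraries numbered 2 of DD and DD+rDKK3 stood apart by fibroblast and stellate cell markers, whose summed level was 875 and 977 CPM there (counts per 1000000 counts of the scaled library) and 57.0 to 177 CPM in the other 4 libraries.

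The library WT 2 goes against its label of female. The Y-linked genes Ddx3y and Eif2s3y had 722 and 924 counts in it, and 404 to 990 and 885 to 1395 counts in the 5 libraries labelled male, while Xist, which marks an inactive X chromosome, had 16 counts in WT 2 and 0 in the others. Fold changes of the markers against WT are therefore also given without this library. Those of other genes, and all counts of genes in these comparisons, rest on both WT libraries.

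All 10 genes are protein coding. Their positions in the GRCm39 assembly, as deposited, were chromosome 10 from 115652737 to 115685798 for Tspan8, chromosome 2 from 102641486 to 102732010 for Cd44, chromosome 5 from 44150962 to 44259374 for Prom1, chromosome 3 from 89136364 to 89140688 for Muc1 and chromosome 17 from 87943407 to 87958557 for Epcam. Among the secreted products, Ambp lay on chromosome 4 from 63061512 to 63073036, Spp1 on chromosome 5 from 104582984 to 104588916 and Clu on chromosome 14 from 66205932 to 66218996. Cftr lay on chromosome 6 from 18170686 to 18322767 and Car2 on chromosome 3 from 14951333 to 14965830. Spp1 and Prom1 share chromosome 5, and Muc1 and Car2 chromosome 3, in each case far apart.

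RefSeq start sites with 250 bases of sequence before and 50 after them (GRCm38.p6) were available for 8 of the 10 genes, in 10 windows, each of which matched GRCm39 at 1 place. Tspan8, Muc1 and Ambp are shown because their levels set groups apart, and Prom1 because its windows hold the letters that Fos and Jun bind. Tspan8 and Prom1 are given as 30 bases around a motif match, and Muc1 and Ambp as the stretch before the start that no annotated exon overlaps. The Tspan8 line (GRCm39, chr10:115653159-115653188, plus strand) has the forkhead letters TGTTTAC in capitals, 18 bases before the start. Both Prom1 lines (minus strand, chr5:44259148-44259177 and chr5:44252281-44252310) have the AP-1 letters TGANTCA in capitals, 88 bases before a start that lies 218 bases downstream of the canonical start and 189 bases before a start 7186 bases downstream of it. Annotated exons overlap the Tspan8 stretch and the first of the Prom1 stretches. The Muc1 line (chr3:89136113-89136353, plus strand) has the TEAD letters GGAATG and the TATA letters TATAAA in capitals, and the Ambp line (chr4:63072411-63072659, minus strand) holds none of the motifs searched.
Tspan8: taacttgatatcTGTTTACtctagagggag
Prom1, nearer start: tcccgtggtccTGACTCAggcacccttagc
Prom1, farther start: ggactgtcctcTGAATCAtcctatcttgga
Muc1: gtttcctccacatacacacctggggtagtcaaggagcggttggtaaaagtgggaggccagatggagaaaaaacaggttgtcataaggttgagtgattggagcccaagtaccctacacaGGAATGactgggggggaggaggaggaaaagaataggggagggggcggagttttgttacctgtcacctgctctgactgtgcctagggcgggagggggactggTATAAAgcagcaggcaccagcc
Ambp: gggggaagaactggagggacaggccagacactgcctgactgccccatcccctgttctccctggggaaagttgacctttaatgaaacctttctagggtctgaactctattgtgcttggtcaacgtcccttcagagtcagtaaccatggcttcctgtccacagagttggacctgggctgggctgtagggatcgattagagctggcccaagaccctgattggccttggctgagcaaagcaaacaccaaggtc
The 6 motifs were chosen after the windows had been read and were searched on both strands. The AP-1 letters, those bound by Fos and Jun, occurred in 7.81% of all 32851 windows and among the markers in Prom1 alone. The forkhead letters occurred in 3.65% of windows and among the markers in Tspan8 alone. The TEAD letters occurred in 14.7% (Muc1), the TATA letters in 13.6% (Muc1 and Spp1), the ETS letters CCGGAAG in 8.86% (Spp1) and the cyclic AMP response element TGACGTCA in 1.79% (no marker). These are matches of letters and do not show that a factor was bound.

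The markers differed far more from each other than between groups. Levels per exon length, scaled to the same total within each library, put Clu at 6100 ± 567 (mean ± SD over the 6 libraries), Spp1 at 607 ± 197 and Muc1 at 193 ± 42.0 on this per-length scale. Clu, a secreted chaperone that is induced in injured pancreas, ranked 17 of 14683 genes with a known length. Epcam followed at 134, Tspan8 at 70.4, Ambp at 61.2 and Prom1 at 41.4 on the per-length scale, then Cd44 at 15.8, Car2 at 5.17 and Cftr at 0.505. The libraries of neighbours in this order did not overlap between Clu and Spp1, Spp1 and Muc1, Prom1 and Cd44, Cd44 and Car2, or Car2 and Cftr. They overlapped between Muc1 and Epcam, Epcam and Tspan8, Tspan8 and Ambp, and Ambp and Prom1, so that these neighbours were not separated. Muc1 lay wholly above Ambp and Prom1, and Epcam wholly above Prom1.

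**Figure D1:**
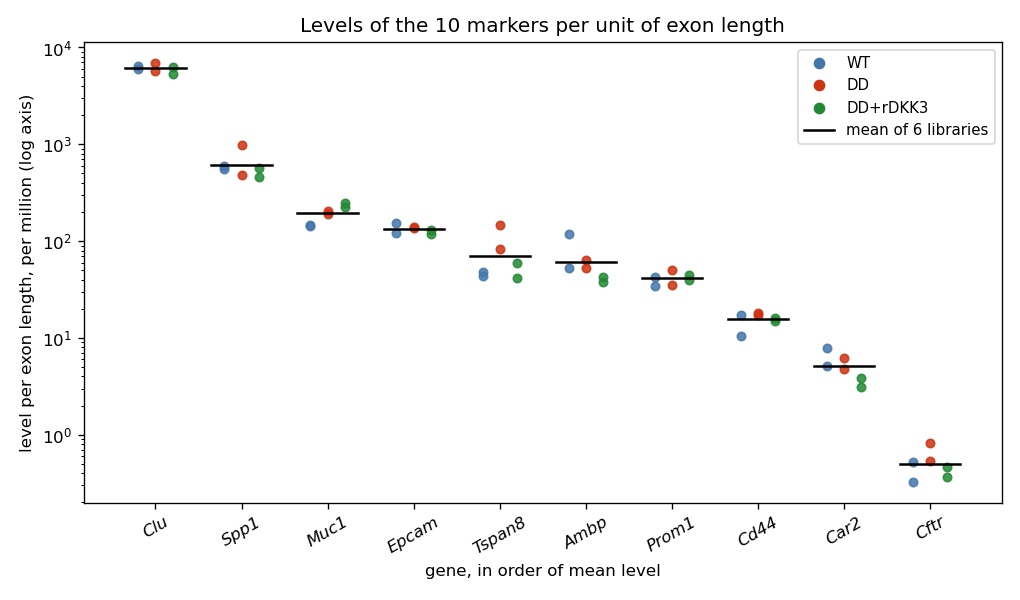
Level of each marker per exon length (log axis), in each library (points, coloured by group) with the mean of the 6 libraries (black line). Clu lies highest at 6100 and Cftr lowest at 0.505, and the genes from Muc1 to Prom1 overlap with their neighbours.

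Tspan8, a tetraspanin of the plasma membrane of digestive epithelia, was highest in DD. Its level was 55.5 and 39.4 CPM in WT, 63.7 and 121.8 CPM in DD, and 35.8 and 50.1 CPM in DD+rDKK3. Both DD libraries lay above all 4 others, whereas WT and DD+rDKK3 overlapped. The log2 fold change was 0.97 (SE 0.33) for DD against WT and -1.11 (SE 0.33) for DD+rDKK3 against DD, with adjusted p-values of 0.586 and 0.9999 (edgeR quasi-likelihood test over all genes). DD 2 carried much of this: without it the fold changes were 0.43 and -0.57. For DD+rDKK3 against WT the log2 fold change was -0.14 (SE 0.33). Without WT 2 the fold changes against WT were 0.74 for DD and -0.37 for DD+rDKK3.

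Muc1, a transmembrane mucin of the apical duct membrane, was highest in DD+rDKK3. It stood at 221.5 and 180.8 CPM in WT, 210.2 and 211.2 CPM in DD, and 262.0 and 281.4 CPM in DD+rDKK3. The treated libraries lay above all 4 untreated libraries, and WT and DD overlapped. The log2 fold change was 0.37 (SE 0.17) against DD and 0.43 (SE 0.17) against WT, with adjusted p-values of 0.9999 and 0.321. Of the 10 markers, Muc1 was the only one with a positive fold change for DD+rDKK3 against WT. With scaling by library size alone, Tspan8, Cd44 and Prom1 also came out above 0. Without WT 2 the Muc1 fold changes against WT were -0.067 for DD and 0.30 for DD+rDKK3.

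Epcam, a homophilic adhesion molecule of simple epithelia, was highest in WT. It had 169.7 and 173.8 CPM in WT, 134.3 and 140.7 CPM in DD, and 138.2 and 121.1 CPM in DD+rDKK3. Both knockout groups lay below WT and overlapped each other. The log2 fold change was -0.32 (SE 0.15) for DD against WT and -0.41 (SE 0.15) for DD+rDKK3 against WT, with adjusted p-values of 0.586 and 0.321. Without WT 2 they were -0.30 and -0.38 on the log2 scale.

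Cd44 and Prom1 were the steadiest of the 10. Cd44, the hyaluronan receptor, lay between 40.2 and 53.0 CPM, with both ends of the range in WT, and its 3 log2 fold changes were 0.04, -0.09 and -0.05 (SE 0.16 to 0.17). Prom1, a membrane glycoprotein of apical protrusions also known as CD133, lay between 94.2 CPM in DD 2 and 126.3 CPM in WT 1, and its fold changes were -0.20, 0.08 and -0.11 (SE 0.18). The standard deviation of log2 CPM over the 6 libraries was 0.134 for Cd44 and 0.171 for Prom1, above that of 12.2 and 22.9% of the genes tested. These fold changes were smaller than or close to their standard errors. Without WT 2, Cd44 came to 0.26 for DD and 0.17 for DD+rDKK3 against WT, and Prom1 to -0.21 and -0.13.

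**Figure D2:**
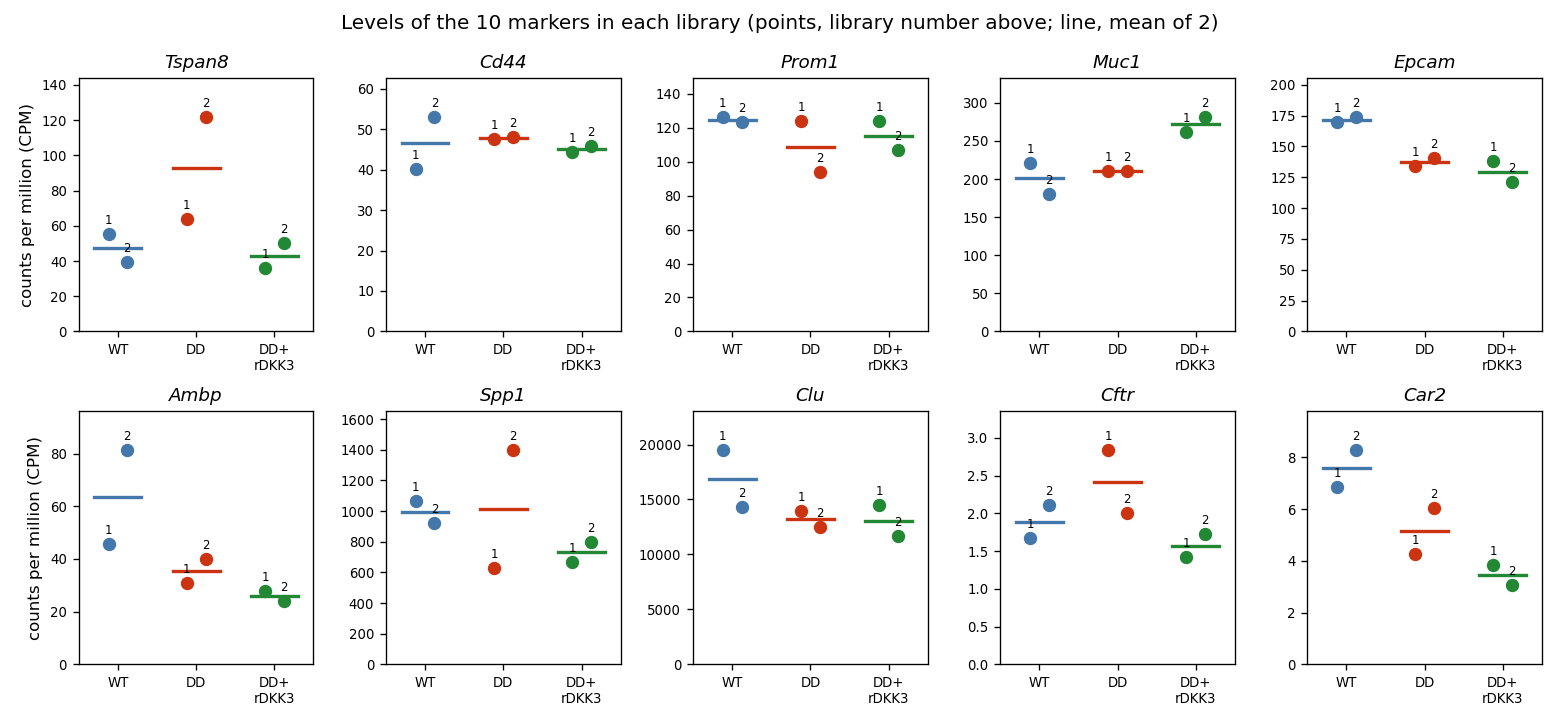
CPM of each marker in every library (points, with the library number above each) and the mean of the 2 libraries of a group (line), on linear axes from 0. Tspan8 peaks at 121.8 CPM in DD 2, Ambp at 81.3 CPM in WT 2 and Muc1 at 281.4 CPM in DD+rDKK3 2.

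Of the 10 markers, Ambp had the largest fold change between treated knockout and WT acini, whereas without WT 2 that of Car2 was larger. It encodes the precursor of a lipocalin and of bikunin, the light chain of the inter-alpha-trypsin inhibitors, and is best known from liver. Its level was 45.6 and 81.3 CPM in WT, 30.7 and 40.0 CPM in DD, and 27.8 and 23.9 CPM in DD+rDKK3. The 3 groups did not overlap, with WT highest and DD+rDKK3 lowest. The log2 fold change was -0.85 (SE 0.27) for DD against WT, -0.45 (SE 0.28) for DD+rDKK3 against DD and -1.30 (SE 0.28) for DD+rDKK3 against WT. The adjusted p-values were 0.586, 0.9999 and 0.321 in the same order. The last fold change was past the threshold with DESeq2 (adjusted p 0.00506). WT 2 carried part of it, and without that library the fold changes against WT were -0.36 for DD and -0.81 for DD+rDKK3.

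Hepatocyte markers were summed over 12 genes. The sum was 32.7 and 30.8 CPM in WT, 32.9 and 39.2 CPM in DD, and 24.1 and 25.4 CPM in DD+rDKK3, led by Ttr, which islets also make, at 18.4 to 29.6 CPM. Serpina1a and Serpina1b were at 0 counts in all 6 libraries, and Alb did not exceed 4.78 CPM. The sum was above the level of Ambp in DD 1 and DD+rDKK3 2 and below it in the other 4 libraries. Of these markers, 5 were tested: Ttr, Alb, Fga, Fgg and Cps1. None of these but Ttr exceeded 4.78 CPM in any library. For DD+rDKK3 against DD 0 of 5 lay above 0 (all genes, 49.5%), with a median log2 fold change of -0.82. Without overlap of libraries, 3 of 5 were lower (all genes, 14.4%). Against WT, 1 of 5 lay above 0 in DD+rDKK3 (median -0.81, all genes 51.6%) and 3 of 5 in DD (median 0.19, all genes 51.7%). The part of hepatocyte transcripts in the level of Ambp was not tested.

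Spp1 encodes osteopontin, a secreted phosphoprotein that binds integrins and CD44. It was at 1068 and 920.9 CPM in WT, 627.9 and 1398 CPM in DD, and 667.4 and 797.6 CPM in DD+rDKK3. The lowest and the highest of the 6 libraries were both DD, so the DD mean of 1013 ± 545 CPM (SD, n = 2) spans all other values. The log2 fold change for DD against WT was 0.03 (SE 0.35), and turned from -0.66 without DD 2 to 0.52 without DD 1. After rDKK3 the log2 fold change against DD was -0.47 (SE 0.35), and 0.22 without DD 2. For DD+rDKK3 against WT it was -0.44 (SE 0.35), with both treated libraries below both WT libraries. Without WT 2 the fold changes against WT were -0.072 for DD and -0.54 for DD+rDKK3.

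The 2 markers high in DD 2, Tspan8 and Spp1, shared that library with stromal and macrophage markers and with Msln, a mesothelial marker. Summed fibroblast and stellate markers, led by Col1a1, were 129 and 57.0 CPM in WT, 77.2 and 875 CPM in DD, and 177 and 977 CPM in DD+rDKK3. Summed macrophage markers, led by Lyz2, were 149 and 60.8 CPM in WT, 73.2 and 278 CPM in DD, and 91.4 and 216 CPM in DD+rDKK3. Summed mesothelial markers were highest in DD 2 at 34.9 CPM, against 8.43 to 14.9 CPM in the other 5 libraries. Msln alone made up 32.6 CPM of the sum in DD 2. None of the other mesothelial markers exceeded 1.88 CPM in any library, so the sum is close to a level of 1 gene. In DD+rDKK3 2, where the fibroblast sum was highest, Tspan8 was at 50.1 CPM and Spp1 at 797.6 CPM. In bulk RNA, fewer cells of a type and less RNA per cell cannot be told apart, and the part of other cells in these levels was not tested.

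Clu alone took 1.22 to 1.65% of all counts in each library. Its level was 19502 and 14281 CPM in WT, 13959 and 12479 CPM in DD, and 14493 and 11669 CPM in DD+rDKK3. WT 1 stood highest. Both DD libraries lay below both WT libraries, by a margin of 14281 against 13959 CPM. The log2 fold changes were -0.35 (SE 0.24), -0.02 (SE 0.24) and -0.37 (SE 0.24) for knockout against WT, treated against untreated knockout, and treated knockout against WT. Without WT 2 the fold changes against WT were -0.56 for DD and -0.57 for DD+rDKK3, and without WT 1 they were -0.096 and -0.11.

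Both bicarbonate transport genes were low among the markers. Per exon length, 8.64% of genes with a known length lay below Cftr and 46.9% below Car2. Cftr, the chloride and bicarbonate channel of the apical duct membrane, had 17 and 30 counts in WT, 60 and 34 counts in DD, and 27 and 32 counts with rDKK3, or 1.43 to 2.84 CPM. At this depth the exact 95% Poisson interval was 0.973 to 2.67 CPM in WT 1 and 2.17 to 3.65 CPM in DD 1, and these intervals cover counting error only. The treated libraries lay below DD, with a log2 fold change of -0.62 (SE 0.35). The fold change for DD against WT was 0.35 (SE 0.36), or 0.54 without WT 2 and 0.097 without DD 1. For DD+rDKK3 against WT it was -0.27 (SE 0.37), or -0.080 without WT 2.

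Car2, the cytosolic carbonic anhydrase that supplies bicarbonate, had 70 and 118 counts in WT, 90 and 103 counts in DD, and 73 and 57 counts with rDKK3. On the CPM scale these were 6.88 and 8.29, then 4.26 and 6.06, then 3.86 and 3.07. The 3 groups did not overlap, in the order WT, DD, DD+rDKK3, which was also the order of Ambp. The share of all genes with this order was not counted, so nothing is read from its recurrence. The log2 fold change was -0.56 (SE 0.27) for DD against WT, -0.57 (SE 0.28) for DD+rDKK3 against DD and -1.13 (SE 0.28) for DD+rDKK3 against WT, the last with an adjusted p of 0.321. Without WT 2 those against WT were -0.41 and -0.98.

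**Figure D3:**
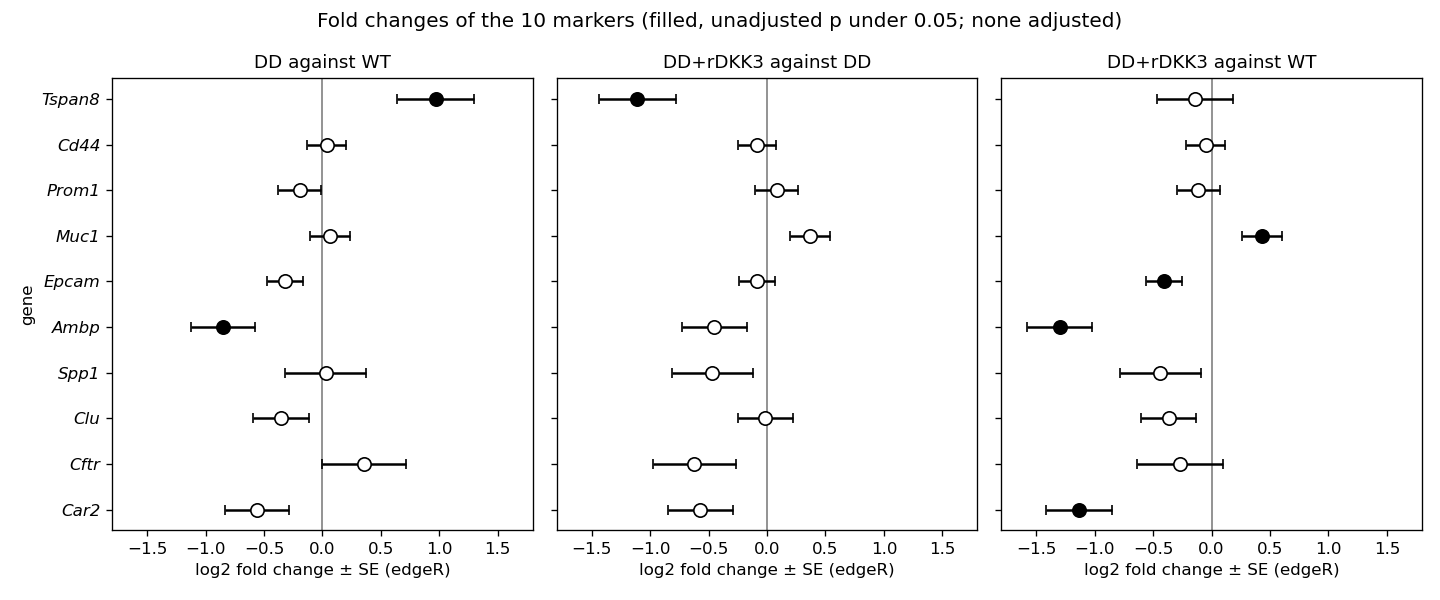
Log2 fold change of each marker with its standard error (edgeR) in the 3 comparisons, with filled points at an unadjusted p under 0.05. Tspan8 is at 0.97 and -1.11 in the comparisons that involve DD, Ambp at -1.30 and Car2 at -1.13 for DD+rDKK3 against WT, and no marker passed the adjusted threshold.

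The first comparison, DD against WT, asks what loss of DKK3 does to acini under ADM conditions. None of the 10 markers was past an adjusted p of 0.05, where 0.0407% of all genes were (edgeR quasi-likelihood test). At an unadjusted p under 0.05, 1 marker was higher (Tspan8) beside 4.27% of all genes and 1 lower (Ambp) beside 3.99%. By DESeq2 no marker passed the adjusted threshold either. Without overlap of libraries, 1 marker was higher in DD (Tspan8) beside 18.1% of all genes, and 4 were lower (Ambp, Clu, Epcam and Car2) beside 19.7%. The median log2 fold change was -0.085 over the markers, with 5 of 10 above 0, and 0.016 over all genes tested, of which 51.7% were above 0.

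The second comparison, DD+rDKK3 against DD, asks what the missing protein does when it is added back. No marker and no other gene was past the adjusted threshold (0% of all genes), and at an unadjusted p under 0.05 1 marker was lower (Tspan8) beside 1.38% of all genes and 0 were higher beside 0.597%. DESeq2 called 5 genes and none of the markers. Without overlap of libraries, Muc1 was higher after treatment, 1 marker beside 15.1% of all genes, and Tspan8, Ambp, Cd44, Cftr and Car2 were lower, 5 markers beside 14.4%. The median log2 fold change was -0.27 over the markers, with 2 of 10 above 0, where 49.5% of all genes were above 0 and the median of all genes was -0.0028. This comparison and the first share the DD libraries, so their opposite signs for Tspan8 are not separate observations.

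The third comparison, DD+rDKK3 against WT, sets treated knockout acini beside acini that have the gene. By edgeR no marker passed the adjusted threshold, where 0.0475% of all genes did, and DESeq2 called 1, Ambp (adjusted p 0.00506). DESeq2 gave no adjusted p for Car2 and Cftr in this comparison. At an unadjusted p under 0.05, 1 marker was higher (Muc1) beside 7.34% of all genes, and 3 were lower (Ambp, Car2 and Epcam) beside 8%. Without overlap of libraries, 1 marker was higher (Muc1) beside 27.9% of all genes, and 4 were lower (Ambp, Spp1, Epcam and Car2) beside 27.1%. The median log2 fold change was -0.32 over the markers, with 1 of 10 above 0, and 0.017 over all genes, of which 51.6% were above 0. With library size as the only scaling, the median over all genes moved to 0.22 for DD against WT and 0.18 for DD+rDKK3 against WT.

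**Figure D4:**
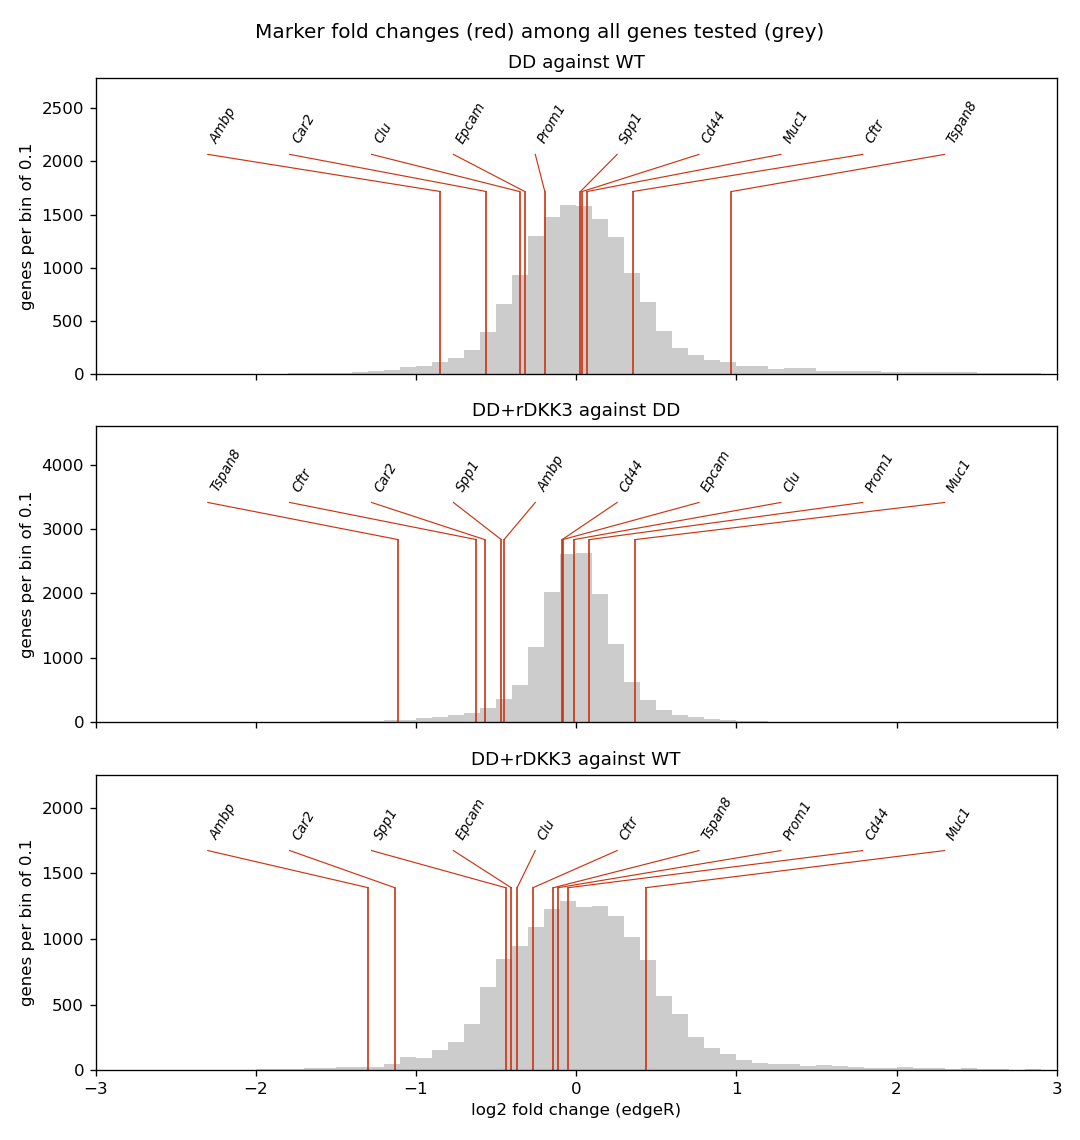
Number of genes tested per bin of 0.1 log2 fold change (grey) with each marker's fold change (red lines) in the 3 comparisons. In DD+rDKK3 against DD the distribution of all genes is narrowest and Tspan8 lies at -1.11, and in DD+rDKK3 against WT Ambp and Car2 lie at -1.30 and -1.13.

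The markers reached their highest and lowest values in different libraries, with some in common. WT 2 held the highest value of 4 markers (Ambp, Cd44, Epcam and Car2), WT 1 and DD 2 of 2 each, and DD 1 and DD+rDKK3 2 of 1 each. DD+rDKK3 2 held the lowest value of 4 markers (Ambp, Clu, Epcam and Car2) and DD+rDKK3 1 of 2 (Tspan8 and Cftr). The ratio of the highest to the lowest library was 3.41 for Tspan8 and for Ambp, 2.704 for Car2 and 2.23 for Spp1, and 1.32 to 1.99 for the other 6.

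**Figure D5:**
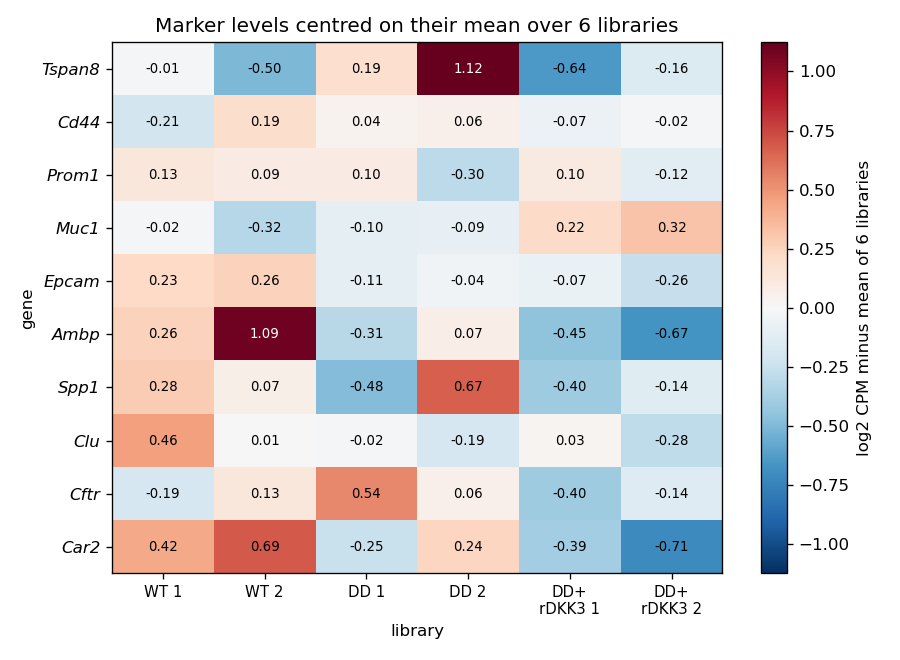
Log2 CPM of each marker (rows) in each library (columns) minus its mean over the 6 libraries, with the value in each cell. Tspan8 reaches 1.12 in DD 2 and Ambp 1.09 in WT 2, and Cd44 stays between -0.21 and 0.19.

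For the 3 markers that varied most, the tested genes with the most similar course over the 6 libraries were listed by the root-mean-square difference of centred log2 CPM, among 11865 genes with an average log2 CPM of at least 1. Nearest to Tspan8 were Sdcbp2 (difference 0.149), the fatty acid binding protein gene Fabp5 (0.158) and the lysyl oxidase gene Loxl4 (0.193). Fabp5, at 133 and 112 CPM in WT, 207 and 310 CPM in DD and 108 and 158 CPM in DD+rDKK3, was highest in the same library as Tspan8. Nearest to Ambp were Apcs (0.193), Car2 (0.195) and the phosphodiesterase gene Pde4b (0.196). Nearest to Car2 were the EGF receptor ligand gene Btc (0.123), Pkia (0.123) and Cd14 (0.129). With 6 libraries in 3 groups, these are descriptions of likeness only.

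Partners of the markers were described by 33 genes: integrins and CD44 splicing regulators, hyaluronan synthases and hyaluronidases, receptors of clusterin, heavy chains that bikunin joins, and tetraspanin partners. Of 29 tested, 18 lay above 0 in DD against WT (all genes, 51.7%), with a median log2 fold change of 0.19. At an unadjusted p under 0.05, 3 were higher (all genes, 4.27%) and 0 lower (3.99%). Without overlap of libraries, 6 were higher (all genes, 18.1%) and 7 lower (19.7%). None passed the adjusted threshold in any comparison. The 3 higher at an unadjusted p under 0.05 were Itgb4 (log2 fold change 0.55, SE 0.17), an integrin chain that associates with tetraspanins, Esrp2 (0.49, SE 0.17), a splicing regulator of CD44, and Lrp8 (1.20, SE 0.42), a receptor of clusterin. Lrp8 was low, at 0.982 and 2.53 CPM in WT and 4.31 and 3.94 CPM in DD. After rDKK3, Itih2, a heavy chain that binds bikunin, was lower at an unadjusted p under 0.05 (-0.76, SE 0.30), 1 gene beside 1.38% of all genes, and 14 of 29 genes lay above 0 (all genes, 49.5%) with a median of -0.02. Here 2 were higher without overlap of libraries (all genes, 15.1%) and 10 lower (14.4%). Against WT, DD+rDKK3 had 3 higher (all genes, 7.34%) and 4 lower (8%) at an unadjusted p under 0.05, among them Itgb4 (0.68, SE 0.17) and the tetraspanin Cd9 (-0.77, SE 0.20). In that comparison 11 were higher without overlap of libraries (all genes, 27.9%) and 9 lower (27.1%). Cd9 stood at 136 and 129 CPM in WT, 80.5 and 118 CPM in DD and 75.9 and 79.3 CPM in DD+rDKK3.

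Other duct ion and water transport genes were set beside Car2 and Cftr in DD against WT. Of 17 tested, 12 were above 0 (all genes, 51.7%), 6 were higher at an unadjusted p under 0.05 (all genes, 4.27%) and 0 lower (3.99%), with a median log2 fold change of 0.37. The calcium-activated chloride channel gene Ano1 (0.65, SE 0.19) and the kinase gene Stk39 (0.59, SE 0.18) were among those with the smallest p. Ano1 was at 39.2 and 54.1 CPM in WT, 79.2 and 67.5 CPM in DD and 62.9 and 70.2 CPM in DD+rDKK3. After rDKK3, 9 of 17 lay above 0 (all genes, 49.5%) with a median of 0.04, and none passed an unadjusted p of 0.05. Against WT, DD+rDKK3 had 7 higher (all genes, 7.34%) and 0 lower (8%) at an unadjusted p under 0.05, among them the kinase gene Wnk1 (0.73, SE 0.20). None passed the adjusted threshold in any comparison.

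Duct keratins and transcription factors, 15 genes, were divided. In DD against WT 8 of 15 lay above 0 (all genes, 51.7%), and the median log2 fold change was 0.04. Krt20 was higher (1.20, SE 0.38) and Krt23 lower (-0.48, SE 0.19) at an unadjusted p under 0.05, each 1 of 15 genes beside 4.27 and 3.99% of all genes. Krt7 was at 88.8 and 81.5 CPM in WT, 75.3 and 88.8 CPM in DD and 56.7 and 59.4 CPM in DD+rDKK3, so WT and DD overlapped. For DD+rDKK3 its log2 fold change was -0.50 against DD (SE 0.15, adjusted p 0.9999 by edgeR) and -0.55 against WT (SE 0.15). Sox9, the duct transcription factor, was at 12.8 and 13.6 CPM in WT, 16.2 and 14.1 CPM in DD and 16.6 and 20.5 CPM in DD+rDKK3. Its log2 fold change for DD+rDKK3 was 0.50 (SE 0.19) against WT and 0.29 (SE 0.19) against DD. For DD+rDKK3 against DD, 8 of 15 genes lay above 0 (all genes, 49.5%), and at an unadjusted p under 0.05 Krt7 alone was lower (1.38%). Against WT, 6 of 15 lay above 0 (all genes, 51.6%), with Sox9 higher (7.34%) and Krt7 lower (8%) at that threshold. None passed the adjusted threshold in any comparison.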

How the data were processed

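RNA of 6 acinar cultures was sequenced, 2 libraries in each of 3 groups. The deposited table holds raw counts, which the authors made, per the labels and their methods, by aligning stranded paired-end reads with STAR 2.7.9a to GRCm39 with the basic GENCODE M32 annotation, counting alignments over exons and summing by gene. Counting by gene cannot tell transcripts of 1 gene apart. From these counts, 92 spike-in rows were left out, and genes were kept by filterByExpr of edgeR 4.0.16 in R 4.3.3 (minimum count 10, minimum total 15), scaled by TMM and fitted over all 6 libraries and 3 groups with edgeR's quasi-likelihood model. The p-values are two-sided and adjusted by Benjamini-Hochberg over 14738 genes, with calls under 0.05. Residual degrees of freedom were 3, and the biological coefficient of variation, common to all genes, was 0.215. CPM uses TMM-scaled totals, and log2 CPM a prior count of 2. Standard errors are the log2 fold change divided by the root of F. Library totals of 12018473 to 19750401 counts make 1 count worth 0.0473 to 0.0982 CPM.

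The markers and all other gene lists were chosen with earlier results of these data known. All 10 markers were named in every comparison, with up to 3 genes of smallest p from each other list and the genes most like the 3 most variable markers. Exon lengths and exon overlaps came from GENCODE M39, the same assembly in a later release, which gave a length for 14683 of 14738 genes. Alternatives were DESeq2 1.42.0, limma-voom (limma 3.58.1), other scalings, other filters, a replicate block, the 4 libraries of a comparison alone and each library left out in turn. The fit was tested on simulated counts. Exact permutation of 2 against 2 libraries cannot reach a p under 0.05 and was not used. The authors' own comparisons were not used. For 1 gene of these lists, values are not reported here.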

Additional observations from a re-analysis of the deposited data

How the results depend on the processing

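No marker was called by the edgeR fit with each library left out. The filter on low counts and the tool moved the calls most, and the cause was not tested. In the order of the report, the 3 comparisons had 6, 0 and 7 genes called as reported, 80, 5 and 74 with DESeq2, and 528, 73 and 788 with no filter. DESeq2 called 1 marker (Ambp, DD+rDKK3 against WT). With no filter, 2 markers were called for DD against WT (Tspan8 and Ambp), 1 for DD+rDKK3 against DD (Tspan8, adjusted p 1.1e-05) and 2 for DD+rDKK3 against WT (Ambp and Car2). A minimum of 1 CPM in every library gave 2 genes for DD against WT and 2 for DD+rDKK3 against WT, and limma-voom gave 3 for DD+rDKK3 against WT. With 1 library left out, 2 to 6 genes were called for DD against WT, 0 for DD+rDKK3 against DD and 2 to 9 for DD+rDKK3 against WT.

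Same-numbered libraries deviated together in DD and DD+rDKK3 (r = 0.65 over genes) but not in WT and DD (-0.39) or WT and DD+rDKK3 (-0.25). Titles of DD and DD+rDKK3 libraries share the names DD1 and DD2. No label states a shared animal, and the labelled ages differ, so the main fit was left unpaired. With a block within the knockout libraries, Tspan8 in DD+rDKK3 against DD was -1.06 (SE 0.21, adjusted p 0.524 by edgeR). A replicate block over all 3 groups gave 7, 0 and 5 genes, and a replicate block within the knockout libraries 20, 0 and 15, with no marker called.

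Some directions turned. Spp1 in DD against WT was -0.075 with limma-voom, -0.065 with the replicate block over all groups and -0.42 with that within the knockout libraries. Under library size alone, Prom1 was 0.013 in DD against WT, and Tspan8, Cd44 and Prom1 were 0.043, 0.10 and 0.050 in DD+rDKK3 against WT. Prom1 in that comparison was 0.035 with the replicate block within the knockout libraries. With each library left out, DD against WT ranged from -0.13 to 0.26 for Cd44, -0.067 to 0.24 for Muc1 and -0.66 to 0.52 for Spp1. DD+rDKK3 against DD ranged from -0.19 to 0.13 for Clu, -0.96 to 0.22 for Spp1 and -0.10 to 0.27 for Prom1. DD+rDKK3 against WT ranged from -0.40 to 0.14 for Tspan8 and -0.22 to 0.17 for Cd44. Tspan8, Ambp, Clu, Epcam, Cftr and Car2 kept their signs in DD against WT under every alternative run. Cftr rested on 17 to 60 counts and Car2 on 57 to 118 per library, the fewest of the markers.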

Other observations

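Among 39 tested genes of 44 other surface and secreted markers of metaplasia, 27 lay above 0 for DD against WT (all genes, 51.7%). At an unadjusted p under 0.05, 9 genes were higher (all genes, 4.27%) and 5 lower (3.99%), and none passed the adjusted threshold (edgeR). The median log2 fold change was 0.35. The gastric mucin gene Muc5ac had the smallest p. It was at 68.1 and 46.6 CPM in WT, 320.2 and 913 CPM in DD and 329.6 and 616 CPM in DD+rDKK3, with a log2 fold change of 3.43 (SE 0.54, adjusted p 0.232) for DD against WT and 3.05 (SE 0.53, adjusted p 0.321) once rDKK3 had been added, again relative to WT. All 4 knockout libraries lay above both WT libraries, also after rDKK3.

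Tm4sf4, a tetraspan membrane protein gene, was lower in the knockout libraries, with 201 and 223 CPM in WT, 106 and 114 CPM in DD and 94.8 and 67.2 CPM in DD+rDKK3. Its groups did not overlap, in the order that Ambp and Car2 also had, for which no share of all genes was counted. The secreted protease inhibitor gene Wfdc2 was at 41.6 and 34.3 CPM in WT, 18.6 and 24.3 CPM in DD and 21.02 and 15.7 CPM in DD+rDKK3.

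Cldn18 is a gastric tight junction gene. It was at 12.9 and 12.7 CPM in WT, 22.9 and 20.8 CPM in DD and 14.7 and 13.9 CPM in DD+rDKK3. Both DD libraries lay above the others, as for Tspan8. Of the DD libraries, DD 1 was the higher for Cldn18 and DD 2 for Tspan8. The log2 fold change of Cldn18 was 0.77 (SE 0.16) for DD against WT and -0.61 (SE 0.16) for DD+rDKK3 against DD. The adjusted p-values were 0.442 and 0.9999 (edgeR). These comparisons share the DD libraries. For DD+rDKK3 against DD, 10 of the 39 genes lay above 0 (all genes, 49.5%) and 29 below. The median log2 fold change was -0.38, where that of all genes was -0.0028. At an unadjusted p under 0.05, 5 were lower (all genes, 1.38%) and 1 higher (0.597%). The calcium-binding protein gene S100a11 (-0.72, SE 0.18) and the annexin gene Anxa3 (-0.70, SE 0.20) were among the 5 lower genes. Each had an adjusted p of 0.9999 (edgeR), and none of the 39 passed the adjusted threshold in any comparison. For DD+rDKK3 against WT, 21 of 39 lay above 0 (all genes, 51.6%), with a median of 0.04. There 6 were higher (all genes, 7.34%) and 7 lower (8%) at an unadjusted p under 0.05.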
